A study of Mus musculus with 3 samples.

Results

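The genes described here are 29 genes of cholesterol synthesis, uptake and efflux among 55536 annotated genes. They were chosen by name, as known members of this pathway, but with earlier results of these data known. All 29 were found in the deposited gene tables. Their RNA was measured in the nuclear fraction of bone marrow-derived macrophages, phagocytes grown from marrow progenitors, of C57BL/6J mice. The cells had received Lipid A, the membrane anchor of bacterial lipopolysaccharide, at 100 ng/ml for 15 min. The 3 libraries are biological replicates of this 1 group, and the samples analysed here hold no untreated group, so no value below is a response to Lipid A. The input was 500 ng of RNA for replicate 2 and 1000 ng for replicates 1 and 3. Replicate 2 and the lower starting quantity thus cannot be told apart, whereas replicates 1 and 3 had the same quantity. The labels record 1 donor entry for all 3 and give no age or sex of the mice. A technical and a biological origin of the spread between libraries cannot be told apart.

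Cells build cholesterol from acetyl groups, first along the mevalonate steps that end in farnesyl diphosphate and then along the sterol steps from squalene to cholesterol. When sterols in the endoplasmic reticulum are scarce, Scap escorts the SREBP transcription factors, the products of Srebf1 and Srebf2, to the Golgi, where they are cut and released to switch on the synthesis genes. When sterols are plentiful, Insig proteins hold Scap back, and oxysterols activate the LXR nuclear receptors, which switch on export and carrier genes such as Abca1, Abcg1 and Apoe. Macrophages take up much lipid from dying cells and lipoproteins and are a well-known site of this export.

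The sequences just upstream of members are shown because the results below concern synthesis enzymes, an exporter and a gene with alternative starts. SREBP and LXR are known to act on such genes, but the activity of neither was measured here. Each is 250 bases that end at the last base before a RefSeq start (build GRCm38.p6), read 5′ to 3′ on the gene's strand, and holds no exon of the GENCODE M21 annotation. Capitals mark matches, on either strand, to the sterol regulatory element TCACNCCAC, to the CCAAT box, to the LXR element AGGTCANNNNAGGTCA, or to the form of it known from the Abca1 promoter (GGTTACTNNCGGTCA).
Hmgcs1 (chr13:119690101-119690350, plus strand): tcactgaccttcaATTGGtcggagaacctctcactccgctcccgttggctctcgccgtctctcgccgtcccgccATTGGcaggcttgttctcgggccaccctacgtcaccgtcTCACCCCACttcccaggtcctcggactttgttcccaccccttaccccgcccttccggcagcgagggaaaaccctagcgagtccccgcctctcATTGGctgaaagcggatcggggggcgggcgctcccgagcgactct
Sc5d (chr9:42264301-42264550, minus strand): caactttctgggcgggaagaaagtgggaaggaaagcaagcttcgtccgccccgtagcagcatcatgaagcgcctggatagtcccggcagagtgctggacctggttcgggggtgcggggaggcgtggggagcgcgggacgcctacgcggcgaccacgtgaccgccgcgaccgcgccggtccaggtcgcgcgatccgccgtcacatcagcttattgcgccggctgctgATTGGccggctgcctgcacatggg
Abca1 (chr4:53159896-53160145, minus strand): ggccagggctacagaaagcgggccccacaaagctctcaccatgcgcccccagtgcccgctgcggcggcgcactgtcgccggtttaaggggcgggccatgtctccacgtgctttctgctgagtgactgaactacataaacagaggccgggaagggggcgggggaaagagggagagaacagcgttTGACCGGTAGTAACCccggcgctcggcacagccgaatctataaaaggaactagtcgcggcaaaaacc
Srebf1, upstream start (chr11:60220628-60220877, minus strand): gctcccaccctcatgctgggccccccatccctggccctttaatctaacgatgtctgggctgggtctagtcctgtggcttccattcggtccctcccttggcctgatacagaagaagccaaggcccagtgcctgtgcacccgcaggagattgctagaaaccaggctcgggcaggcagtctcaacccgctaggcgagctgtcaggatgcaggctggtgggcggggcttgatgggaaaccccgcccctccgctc
Srebf1, downstream start (chr11:60210472-60210721, minus strand): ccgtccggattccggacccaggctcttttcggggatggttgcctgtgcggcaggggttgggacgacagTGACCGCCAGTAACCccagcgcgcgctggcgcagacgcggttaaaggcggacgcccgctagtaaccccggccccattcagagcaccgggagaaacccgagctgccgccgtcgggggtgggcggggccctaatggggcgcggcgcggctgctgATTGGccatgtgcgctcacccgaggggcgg

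In the Hmgcs1 window the sterol regulatory element lay 137 to 129 bases before the start, between CCAAT boxes at 176 to 172 and at 45 to 41 bases, with another at 237 to 233 bases. In the Sc5d window a single CCAAT box lay 24 to 20 bases before the start. The Abca1 window held the Abca1 form of the LXR element at 67 to 53 bases, and the downstream window of Srebf1 held it at 182 to 168 bases, with a CCAAT box at 30 to 26 bases. No motif matched in the printed upstream window of Srebf1. RefSeq gives another start of Srebf1, farther upstream, whose window (chr11:60222582-60222831) is not printed and held a CCAAT box at 166 to 162 bases. The RefSeq table held 24 of the 29 members. Those it did not match were Fdps, Fdft1, Sqle, Abcg1 and Lpl.

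Over the windows of these 24 members, the sterol regulatory element matched in 1, Hmgcs1, against 1.05% of all 32851 windows. The LXR element of AGGTCA repeats matched in 0 of 24, against 0.0152% of all windows. Its Abca1 form, which was added after the sequences had been seen and is taken from these promoters, matched in 3 windows of all, of which 2 belonged to Abca1 and Srebf1. The CCAAT box, also added later, matched in a window of 20 of 24 members and of 13 of 13 synthesis enzymes, against 33.8% of all windows and 37.5% of the 27025 genes. The 4 members without one were Scap, Abca1, Apoe and Ch25h. Such matches describe letters in a short window and no binding was measured.

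The libraries held 18516063, 17345644 and 20947006 expected counts in annotated genes in replicates 1 to 3, where an expected count is a read, or part of one, that a model assigned to a gene. Levels are given as TPM, a relative abundance that is scaled to the same sum in each library and corrected for length, which allows genes to be compared within a library. TPM of a gene moves between libraries with the abundance of very short RNAs, and protein-coding genes held 27.5%, 35.5% and 21.3% of it, so libraries are compared in CPM, the counts scaled to library size with TMM factors. The cells carried macrophage markers, with 7 of 7 detected at a summed 2522, 3479 and 2918 TPM. Summed markers of T cells, B cells, neutrophils, dendritic cells, fibroblasts and adipocytes were each at most 2.07 TPM in any library, and the 3 hepatocyte markers Alb, Cyp7a1 and Apoa1 were at 0 counts, where up to 3 counts per library are allowed.

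All 29 members passed a mean of 10 expected counts, the minimum that 15876 of all genes reached. Of the members, 17 had a mean of at least 10 TPM, a share of 58.6%, against 31.5% of all genes tested and 38.4% of protein-coding genes tested. The most abundant were the lipid carrier gene Apoe and the lipase gene Lpl, at percentiles 99.8 and 99.5 of the protein-coding genes tested, and the least abundant was Ch25h at percentile 10.3.

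**Figure D1:**
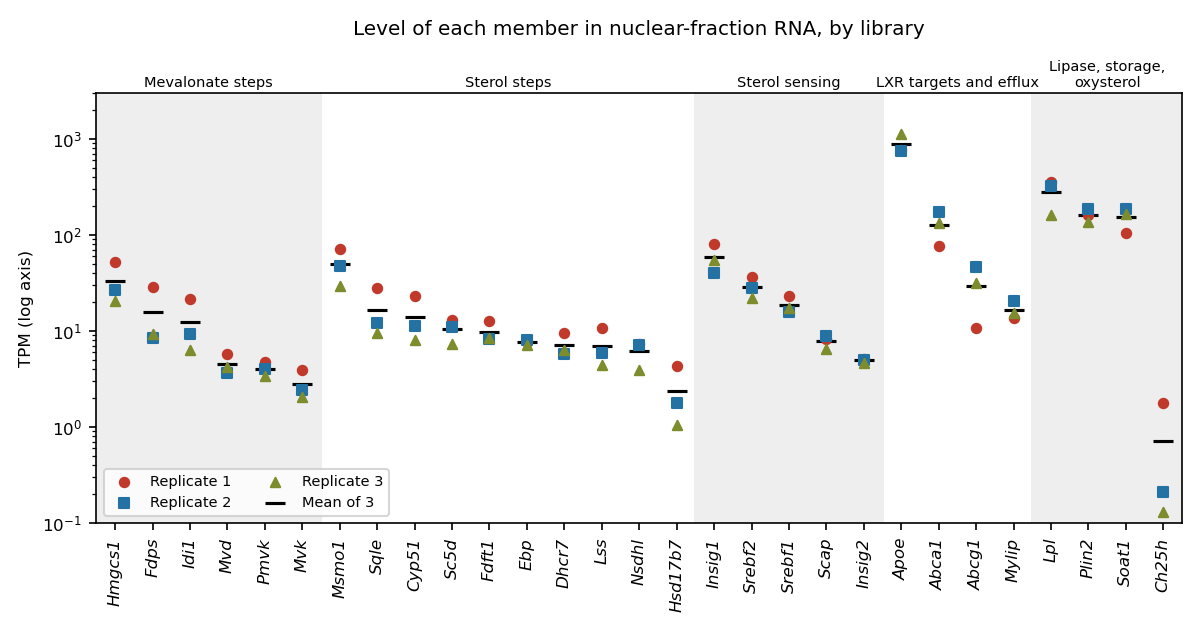
Level of each of the 29 members in TPM (log axis), grouped by role. Points are the 3 libraries and bars are their mean. Apoe, Lpl, Plin2, Soat1 and Abca1 have means above 100 TPM, whereas synthesis enzymes lie between 1.04 and 71.99 TPM.

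The mevalonate steps were read from 6 genes. Hmgcs1 (ENSMUSG00000093930.2, chr13:119690379-119708260), which makes the precursor HMG-CoA, was the highest of them, with 52.28, 26.93 and 20.71 TPM in replicates 1 to 3. It was above Idi1 and Fdps in every library. Idi1, the isomerase of isopentenyl diphosphate, had 21.50, 9.25 and 6.32 TPM. Fdps, which makes farnesyl diphosphate, had 28.98, 8.48 and 9.27 TPM. In all 3 genes replicate 1 stood clear of the other libraries, which lay closer together. The kinases and the decarboxylase between them were low: Mvd was at 4.53 ± 1.08 TPM (SD, n = 3), Pmvk at 4.06 ± 0.708 TPM and Mvk at 2.80 ± 0.975 TPM. The ranges of these 3 genes over the libraries overlapped.

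Among the 10 genes of the sterol steps, Msmo1 (ENSMUSG00000031604.10, chr8:64718139-64733792), a methyl sterol oxidase, was the highest with 71.99, 47.91 and 29.22 TPM. It was above every other synthesis enzyme in each library, Hmgcs1 included. Fdft1 and Sqle carry out the first steps of the sterol branch, squalene synthesis and its epoxidation. Sqle had 27.86, 12.21 and 9.52 TPM and Fdft1 had 12.67, 8.18 and 8.39 TPM. Within each library Sqle was the higher, by 0.63 ± 0.48 on the scale of log2(TPM + 0.1) (SD, n = 3), a 1.55-fold difference. An exact sign-flip permutation test, two-sided, returned p = 0.25, the smallest that 3 libraries allow. This held for each of the 6 pairs of genes compared in this way, and the adjusted value was 0.25 as well.

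Cyp51, the lanosterol demethylase, had 23.17, 11.13 and 8.01 TPM, and Lss, which closes the lanosterol rings, had 10.83, 5.85 and 4.42 TPM. Both were highest in replicate 1 by a margin wider than the distance between the other libraries. Sc5d, a sterol desaturase, was at 10.4 ± 2.89 TPM (SD, n = 3). Ebp, a sterol isomerase, was at 7.61 ± 0.431 TPM and Dhcr7, a reductase at the end of the pathway, at 7.19 ± 2.03 TPM. Nsdhl, a dehydrogenase of the demethylation steps, was at 6.14 ± 1.89 TPM. The lowest mean of the synthesis enzymes was that of Hsd17b7, the keto-reductase of the same steps, with 4.31, 1.80 and 1.04 TPM, though Mvk was lower in replicate 1 and the means of the pair differed by less than either SD. By mean level Fdft1, Ebp, Dhcr7, Lss and Nsdhl followed each other in steps smaller than the larger SD of each neighbouring pair.

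The sensing machinery was led by Insig1 (ENSMUSG00000045294.11, chr5:28071363-28078662), the retention protein that SREBP itself induces, with 80.99, 40.09 and 54.06 TPM. Insig2, its relative, which SREBP does not induce, had 5.15, 5.03 and 4.67 TPM. The levels of the pair did not overlap: Insig2 was lower by 3.47 ± 0.49 on the log2(TPM + 0.1) scale (SD, n = 3), at 0.0900 of Insig1 (exact sign-flip permutation p = 0.25). The point value of Insig2 is itself imprecise, since the authors' deposited 95% credibility intervals lay above it in each library. They were 6.36 to 14.1 TPM in replicate 1, 5.78 to 14.5 in replicate 2 and 5.06 to 9.55 in replicate 3. A mismatch of point and interval was not particular to Insig2. Apoe and Lpl lay above their intervals in each library, with Lpl in replicate 1 at 356.40 TPM against 336 to 344.

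Srebf2, whose product is the main activator of cholesterol synthesis genes, had 36.60, 27.65 and 21.98 TPM. Srebf1, whose products act more on fatty acid genes, had 22.96, 15.78 and 17.47 TPM. Srebf2 was the higher in each library, by 0.60 ± 0.25 on the log2(TPM + 0.1) scale (SD, n = 3), a 1.52-fold difference (exact sign-flip permutation p = 0.25), which shrank to 0.16 with TPM of the second table. There replicate 2 had the opposite order, with 18.99 TPM for Srebf2 and 19.63 for Srebf1. Scap, their escort, was at 7.83 ± 1.24 TPM (SD, n = 3), below both in each library.

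Srebf1 (ENSMUSG00000020538.15, chr11:60199089-60222581, minus strand) has alternative first exons whose sequences upstream are shown above. The transcript from the upstream start has its first exon at 60220453 to 60220604 and carries the first exon of the constitutive SREBP form that most cultured cells make. The transcript that begins 10139 bases downstream has its first exon at 60210336 to 60210465 and carries that of the form which LXR and insulin induce in liver. The upstream transcript took 81.4%, 81.2% and 75.0% of the gene's expected counts in replicates 1 to 3, or 79.2 ± 3.62% (SD, n = 3). The downstream transcript took 4.82 ± 0.363%, so the upstream one held most of the counts in every library. The division of reads among these transcripts rests on a model, since they share most other exons, and the second table gave 65.7% and 12.6%. The annotated downstream transcript is incomplete and lacks the last exon, so reads there cannot be assigned to it.

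Of the LXR targets, Apoe and Abca1 were among the most abundant members, while the means of Abcg1 and Mylip lay within the range of those of the synthesis enzymes. Apoe (ENSMUSG00000002985.16, chr7:19696109-19699188), the lipoprotein component that macrophages secrete with exported lipid, had 767.29, 750.15 and 1122.45 TPM. Abca1 (ENSMUSG00000015243.4, chr4:53030787-53159895), which loads cholesterol onto lipid-poor apolipoprotein, had 77.28, 171.48 and 134.19 TPM. Abcg1, which exports sterol to mature lipoprotein particles, had 10.76, 46.10 and 31.60 TPM. For both exporters replicate 1 was the low library, and for Apoe replicate 3 the high one. Abca1 was above Abcg1 in each library, by 2.27 ± 0.50 on the log2(TPM + 0.1) scale (SD, n = 3), a 4.82-fold difference (exact sign-flip permutation p = 0.25). Mylip, the LXR-induced ubiquitin ligase that removes lipoprotein receptors, was at 16.4 ± 3.65 TPM (SD, n = 3).

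Lpl (ENSMUSG00000015568.16, chr8:68880491-68907448), the lipase that frees fatty acids from lipoproteins, had 356.40, 320.45 and 161.76 TPM. Apoe exceeded it in each library, by 1.71 ± 0.94 on the log2(TPM + 0.1) scale (SD, n = 3), and the difference was widest in replicate 3, where Apoe was highest and Lpl lowest (exact sign-flip permutation p = 0.25). Plin2, the coat protein of lipid droplets, had 162.38, 185.11 and 137.47 TPM. Soat1, which esterifies cholesterol for storage in those droplets, had 104.72, 186.50 and 164.76 TPM. The last member, Ch25h, which makes an oxysterol and is known as an interferon-induced gene, had 53, 5 and 5 counts. The exact 95% Poisson interval was 39.7 to 69.3 counts in replicate 1 and 1.62 to 11.7 in each of the others, which covers counting error only. At 1.80, 0.21 and 0.13 TPM, Ch25h was 288-fold below Soat1, by 8.17 ± 2.07 on the log2(TPM + 0.1) scale (SD, n = 3). The size of this difference is uncertain because Ch25h is near the floor: it was 6.57 with a pseudocount of 1, 9.36 without replicate 1 and 7.51 without replicate 3.

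Taken by the median of each role, the genes of lipolysis, storage and efflux exceeded the enzymes of synthesis in each library. This did not hold for every gene. In replicate 1 Abcg1 (10.76 TPM) and Mylip (13.47 TPM) lay below enzymes such as Hmgcs1 (52.28 TPM) and Msmo1 (71.99 TPM). Ch25h lay below every enzyme in each library. The difference between role medians of log2(TPM + 0.1) was computed within each library, against the sterol steps. For the LXR targets and efflux genes it corresponded to 2.74-fold in replicate 1, 10.9-fold in replicate 2 and 8.89-fold in replicate 3. For the lipase, storage and oxysterol genes it was 11.0-, 22.7- and 20.3-fold, despite the low value of Ch25h. The sensing genes were 1.95-, 1.94- and 2.39-fold above the sterol steps. The mevalonate steps were at 0.950, 0.724 and 0.719 of them. Replicate 1 thus held the smallest distance between efflux and synthesis genes. No test is given for these medians over chosen genes.

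The libraries were then compared gene by gene. A member was called where its CPM was 2-fold or more above both other libraries, or 2-fold or more below both. In replicate 1, 6 of 29 members were called above the others, Idi1, Fdps, Sqle, Cyp51, Hsd17b7 and Ch25h, against 5.07% of all genes tested. Ch25h, with 53, 5 and 5 counts, passed the mean of 10 counts only through replicate 1. The filter itself thus favours its call there, which is no support. Below the others in replicate 1 were 2 of 29, Abca1 and Abcg1, against 3.53%. In replicate 2, 0 members were called above (0.983% of all genes) and 1 below, Insig1 (2.54%). In replicate 3, 1 was called above, Apoe (1.68%), and 0 below (1.74%). These are calls between single libraries of 1 group, with no test, over members chosen with earlier results of these data known.

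Fdps showed the widest difference among synthesis enzymes, with 44.2 CPM in replicate 1 against 11.2 and 17.9 in replicates 2 and 3, which is 3.12-fold above their mean on the log2 scale. Hsd17b7 had 21.7, 8.31 and 6.98 CPM, a 2.85-fold difference, and Idi1 65.4, 24.98 and 26.8 CPM, a 2.53-fold difference. Sqle had 97.9, 43.6 and 45.7 CPM. Idi1 and Fdps act at neighbouring steps of the mevalonate branch, and Sqle and Hsd17b7 in the sterol steps. Cyp51 had 92.1, 43.2 and 43.4 CPM, so that the low libraries were nearly equal. The calls of Sqle and Cyp51 were lost with the estimated counts of the second table. Hmgcs1, with 172, 85.2 and 94.7 CPM, and Msmo1, with 160, 88.4 and 79.7 CPM, lay just outside the call, each at 1.81 times the higher of the other libraries.

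**Figure D2:**
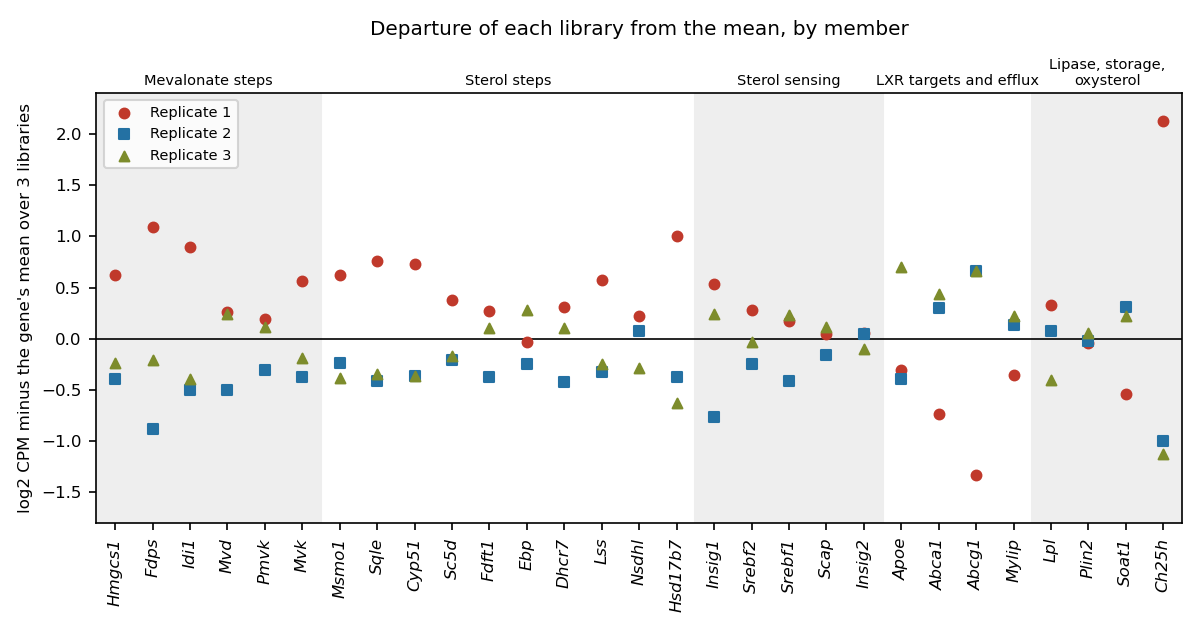
Departure of each library from a member's mean over the 3 libraries, in log2 CPM. Points above 0 are above that mean. Replicate 1 is the highest point for 15 of 16 synthesis enzymes and the lowest for Abca1, Abcg1, Mylip, Plin2 and Soat1.

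Beyond the called genes, 15 of 16 synthesis enzymes had their highest CPM in replicate 1, against 36.6% of all genes tested. The exception was Ebp, highest in replicate 3 (31.9% of all genes) with 9.86, 8.54 and 12.3 CPM. Their lowest CPM was in replicate 2 for 13 of 16, against 32.3% of all genes, and in replicate 3 for the other 3, Msmo1, Nsdhl and Hsd17b7 (32.9% of all genes). The summed CPM of the 16 enzymes was 887, 456 and 493 in replicates 1 to 3. The median departure of replicate 1 from the mean of the other libraries was log2 0.89 for the mevalonate steps and 0.71 for the sterol steps, against 0.02 over all genes tested. The enzymes differed in size of departure. Pmvk, Nsdhl, Mvd, Fdft1 and Dhcr7 were 1.22- to 1.38-fold above the mean of the others in replicate 1, well short of the call. Against the higher of the other libraries they were only 1.01- to 1.15-fold above. Replicate 1 was highest for 14 of 16 enzymes with DESeq2 size factors and for 13 with counts of the second table.

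The sensing genes departed less, with a median of log2 0.27 in replicate 1. Insig1 had 193, 78.6 and 158 CPM, so that replicate 2 was at 0.450 of the others, and its call below them was narrow, at 0.499 of the nearer library. Srebf2, with 181, 126 and 146 CPM, and Srebf1, with 62.9, 41.9 and 65.2 CPM, were also lowest in replicate 2. Scap varied little, from 32.0 to 38.7 CPM. Insig2 had 12.8, 12.8 and 11.6 CPM and, after Plin2, the smallest spread of all members, with an SD of log2 CPM of 0.084.

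The 4 listed LXR targets went the other way by their median, with a departure of log2 -0.82 in replicate 1. They are chosen genes and do not stand for all LXR targets. Abcg1 had 58.6 CPM in replicate 1 against 233 in both other libraries, 0.252 of them. Abca1 had 990 CPM in replicate 1 against 2031 and 2223, or 0.466 of them. Mylip had 49.0, 68.6 and 73.1 CPM, lowest in replicate 1 as well but not called. Lowest in replicate 1 were thus 3 of 4 genes of this role, against 34.8% of all genes tested. Apoe, the exception, had 794, 747 and 1591 CPM and was lowest in replicate 2. The calls of Abca1, Insig1 and Apoe were lost when library totals alone set the scale, and that of Abca1 also with the counts of the second table, whereas Abcg1 kept its call in both.

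Ratios of counts within a library do not depend on its scaling and restate the contrast above from the same counts. All but that of Srebf2 to Insig1 put a gene lowest in replicate 1 over a gene highest there. A low ratio in replicate 1 thus follows from the choice of genes and is no further support. Abca1 had 5.76 counts for each count of Hmgcs1 in replicate 1 and 23.9 and 23.5 in replicates 2 and 3. Abcg1 had 0.598, 5.34 and 5.10 counts for each count of Sqle. The ratio of Mylip to Idi1 was 0.749, 2.75 and 2.73. In these 3 ratios replicates 2 and 3 lay close together and replicate 1 was several-fold lower. The ratio of Abcg1 to Fdps was 1.33, 20.8 and 13.0, and that of Abca1 to Insig1 was 5.12, 25.9 and 14.1. In the last 2 ratios replicate 1 was again the lowest, but replicates 2 and 3 differed. Within the sensing genes the ratio of Srebf2 to Insig1 was instead alike in replicates 1 and 3, at 0.937 and 0.925, and 1.61 in replicate 2.

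The lipase, storage and oxysterol genes showed no common direction. Plin2 had 289, 293 and 310 CPM, with an SD of log2 CPM of 0.054, the smallest of the 29 members. Soat1 was lowest in replicate 1, with 520, 939 and 883 CPM, and Lpl lowest in replicate 3, with 1741, 1454 and 1047 CPM. Ch25h, with its 53, 5 and 5 counts, had the largest spread, an SD of log2 CPM of 1.84, and its call in replicate 1 was not made where a mean of 50 counts was required, because the gene was then left out. In all, 21 of 29 members had an SD of log2 CPM above 0.33, the median of all genes tested.

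**Figure D3:**
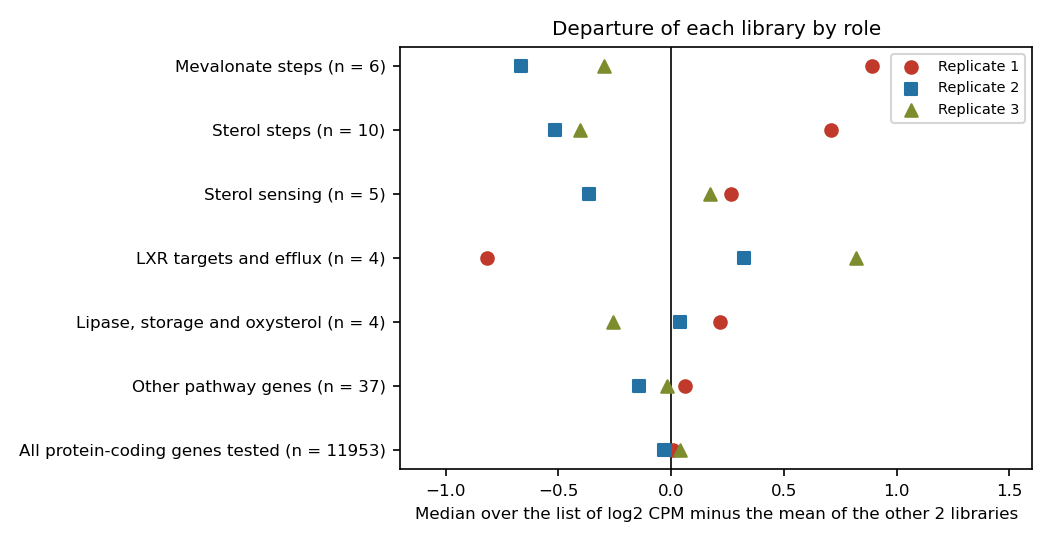
Median over each role of the departure of a library from the mean of the other 2, in log2 CPM, with the other pathway genes and all protein-coding genes tested for reference. In replicate 1 the synthesis roles lie at 0.89 and 0.71 and the 4 listed LXR targets at -0.82, while all protein-coding genes tested lie at 0.01.

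Genes of DNA replication stood apart in the same library. All 9 of them that were examined (Mcm2 to Mcm7, Pcna, Top2a and Mki67, chosen with earlier results of these data known) were highest in replicate 1, against 36.6% of all genes tested, 7 were called above the others there, against 5.07%, and their summed CPM was 572, 182 and 224 in replicates 1 to 3. Summed macrophage markers were at 5147, 6082 and 7889 CPM, but single markers differed: Lyz2, Csf1r and Mertk were lowest in replicate 1, Itgam was highest there, and Adgre1, Cd68 and Fcgr1 were lowest in replicate 2. The part of either in the differences between libraries was not tested. In bulk RNA, a difference in the number of cells of a kind and a difference in RNA per cell cannot be told apart.

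A further 40 genes of lipid handling and its control were examined, of which 37 had a mean of at least 10 counts and 23 a mean of at least 10 TPM. The highest were Lrp1, a receptor for lipoprotein remnants, at 448 ± 147 TPM (SD, n = 3), Lipa, the lysosomal lipase of cholesterol esters, at 228 ± 59.2 TPM, and Pltp, a phospholipid transfer protein, at 167 ± 49.8 TPM. Cyp7b1, an oxysterol hydroxylase, had 0 counts in all 3 libraries, where up to 3 counts each are allowed. The LXR genes themselves were at 32.6 ± 4.43 TPM for Nr1h2 and 8.03 ± 1.12 TPM for Nr1h3.

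Of the 37, 6 were called above the others in replicate 1, against 5.07% of all genes tested, and 0 in each of the other calls. The called genes were the scavenger receptor genes Cd36 and Msr1, the fatty acid desaturase and elongase genes Fads2 and Elovl6, the malic enzyme gene Me1, and Acat2, a thiolase at the head of the mevalonate pathway. Me1, with 32, 9 and 5 counts, passed the mean of 10 counts only through replicate 1, so the filter favours its call there. Msr1 had 670 CPM in replicate 1 against 251 and 179, and Cd36 661 against 298 and 222. Acat2 had 10.7, 4.45 and 4.95 CPM, so its highest library was also that of the enzymes downstream of it. Fasn, the fatty acid synthase and an SREBP target, had 155, 55.4 and 81.3 CPM. Stard4, a sterol carrier that SREBP induces, had 71.2, 28.04 and 36.03 CPM, and both were just short of the call. These 2 were named after their values were seen. Acaca, Acly, Scd2 and Fads1 were only 1.36-, 1.28-, 1.14- and 1.07-fold above the mean of the others in replicate 1. Scd1 was lowest there, with 4.59, 7.46 and 4.96 CPM. The median departure of the 37 in replicate 1 was only log2 0.06. Replicate 1 was the highest library for 17 of the 37 and the lowest for 14, against 36.6% and 34.8% of all genes tested. Pltp, an LXR target, was lowest there, with 217, 345 and 517 CPM. Srebf1, whose downstream window held the Abca1 form of the LXR element, was instead lowest in replicate 2, with 62.9, 41.9 and 65.2 CPM. Neither gene stands for all LXR targets.

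Nuclear RNA holds transcripts whose introns are not yet, or never, removed, and the annotation marks some transcripts as retaining an intron. Of the 29 members, 20 have such a transcript. Together these transcripts took 7.99%, 5.69% and 4.37% of the counts of those members, against 22.8 ± 1.38% (SD, n = 3) over all 7231 genes tested that have one. The pooled share weights abundant genes, and among these Apoe was at 0.380 ± 0.0759% and Lpl at 3.20 ± 1.18%. The median member was at 5.12% and the median gene at 19.3%.

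The share differed between roles. Over the 12 synthesis enzymes with such a transcript, the pooled share was 22.5 ± 2.90% (SD, n = 3) and the median 22.1%, close to the values over all genes. The 6 members above the all-gene median were all enzymes of synthesis. Lss was the highest at 73.1%, 74.1% and 57.6%, divided among several such transcripts. Sqle had 31.9%, 54.2% and 38.2%, and its main coding transcript took 67.2%, 26.3% and 61.8% of its counts. Ebp was at 40.2 ± 4.97% (SD, n = 3), Msmo1 at 34.9 ± 6.54% and Fdps at 34.6 ± 6.89%. Mvk varied most, with 56.0%, 25.8% and 19.3%, on 164, 76 and 95 counts. Other enzymes were low, among them Cyp51 at 2.62 ± 0.594% and Fdft1 at 1.58 ± 0.692%. Of the sensing genes, Srebf2 was at 16.2 ± 1.40% and Insig1 at 11.9 ± 2.47%. These shares depend on the unit: as shares of transcript TPM, which is corrected for transcript length, Insig1 was at 37.8%, Srebf2 at 32.2%, Cyp51 at 16.1% and Fdft1 at 7.05%, whereas Msmo1 was lower, at 21.6%. With counts of the second table Mvk was at 55.3%. The pooled share over the 20 members moved less, to 7.40% in transcript TPM and 7.83% in the second table.

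**Figure D4:**
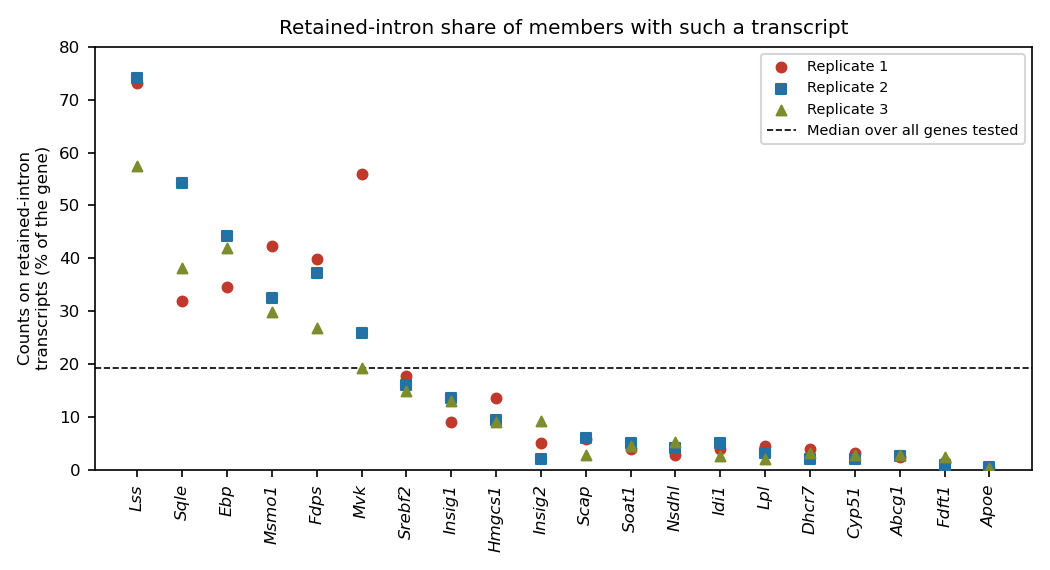
Share of a member's expected counts on transcripts annotated as retaining an intron, in percent, for the 20 members that have one. Points are the 3 libraries and the dashed line is the median of all genes tested with such a transcript, 19.3%, above which 6 members lie on average.

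Several members share their locus or their reads with other genes. Whether the counting used strand is not given in the sources used here, so reads of a gene and of a partner on the opposite strand may be mixed. Hmgcs1 overlaps the antisense gene Gm48342 by 6190 bases, and that gene had 594, 121 and 213 counts, highest in replicate 1 like Hmgcs1 itself. Mvd lies wholly within Gm20388 on the opposite strand, and the 3′ parts of Fdft1 and of the far more abundant protease gene Ctsb overlap by 774 bases. Counts of Hmgcs1, Idi1, Fdps, Fdft1, Lss, Cyp51 and Scap were not whole numbers in some library, as happens where reads are shared with other genes (tolerance 0.005). The values of these 7 members are less certain for that reason.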

How the data were processed

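The 3 libraries of 1 group hold total RNA of the nuclear fraction, depleted of ribosomal RNA. Per the file headers, the deposited gene and transcript tables hold expected counts, TPM and credibility bounds of TPM with the column names that RSEM writes, and a second deposited transcript table holds estimated counts and TPM with the names that kallisto writes. The deposited bounds of TPM were treated as a score and used only where printed. The deposited notes name mm10 and GENCODE M21, with program versions not given in the sources used here.

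The members and all gene lists were chosen with earlier results of these data known. Pairs of genes and roles were compared within a library on log2(TPM + 0.1), which understates differences of low genes; pairs were tested by exact permutation of signs (two-sided), with Benjamini-Hochberg adjustment over 6 pairs. For libraries, expected counts were rounded, genes with a mean of at least 10 counts kept, and log2 CPM computed with a fixed prior count of 0.5. Library sizes were scaled by TMM factors of 1.07, 1.02 and 0.921, which came from edgeR 4.0.16 (R 4.3.3). A call is a difference of at least 2-fold from both other libraries; it is no test. In CPM, 3 counts are 0.162, 0.173 and 0.143 in replicates 1 to 3. Every member is named; of the other pathway genes, the 3 highest, those at or below 3 counts in every library and those called, with further ones named after their values were seen. Retained-intron transcripts were those the annotation so types. Alternatives were other pseudocounts, filters, scalings (DESeq2 1.42.0 size factors, library totals), the second table, TPM over protein-coding genes and leaving out a library. Some genes of this pathway are not analysed here.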

Additional observations from a re-analysis of the deposited data

How the results depend on the processing

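With TPM of the second table, the log2 difference was 0.16 for Srebf2 against Srebf1 (0.60 in the first table), -2.64 for Insig2 against Insig1 (-3.47), 1.67 for Abca1 against Abcg1 (2.27) and 1.31 for sensing genes against sterol steps (1.06). Members at 10 TPM or more numbered 11 with that table and 27 with TPM over protein-coding genes alone (17 as reported). Protein-coding genes tested held 13.8%, 27.3% and 3.77% of TPM in the second table in replicates 1 to 3. In the first table they held 27.5%, 35.5% and 21.3%, so a fixed level of 10 TPM differs in meaning between the tables. The upstream transcript took 65.7% of the counts of Srebf1 in the second table. With library totals alone, calls below the others numbered 1 in replicate 1 and 0 in replicate 2, calls above numbered 0 in replicate 3, and 8 of 16 synthesis enzymes were lowest in replicate 2 (13 as reported). With counts of the second table, 1 member, Abcg1, was called below in replicate 1. With 1 library left out, each call is against the single library left, and the number of members ranged from 0 to 2 above and from 2 to 8 below in replicate 2, and from 2 to 3 above and from 0 to 7 below in replicate 3. No mean difference changed sign, although Srebf2 lay below Srebf1 in replicate 2 of the second table (18.99 and 19.63 TPM). Of 132 values of the main results under alternatives, 18 moved by more than the replicate SD or, for counts, by over 1.5 times. The tables that disagree were made by different methods, and the cause was not tested. No paired analysis was possible because there is 1 group. Depth limits Ch25h, with 5 counts in replicates 2 and 3.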
